A study of Mus musculus with 7 samples.

Results

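Integrins are adhesion receptors made of an alpha and a beta subunit, and 10 of their genes that macrophages use were followed across all libraries of the study. The genes were chosen by name: Itgax, Itgam, Itgal and Itgb2, which encode the leukocyte integrins, Itgav, Itgb3 and Itgb5, which encode the alpha v integrins, and Itga4, Itga5 and Itgb1, which encode fibronectin receptors. All 10 were found among the 27179 genes of the count table by Entrez number, and all 10 passed the filter on low counts, as did 14436 genes in all. RNA came from alveolar macrophages, which clear particles and surfactant from the air sacs, sorted from the lungs of C57BL/6 bone marrow chimeras. Lethally irradiated Ly5.1 recipients had received either 90% Suz12 cKO marrow (conditional knockout, Ly5.2; 3 libraries) or 90% wild type marrow (Ly5.2; 4 libraries), and in both groups the other 10% was wild type Ly5.1 marrow. Suz12 is a core subunit of the polycomb repressive complex PRC2. The design compares macrophages from recipients of Suz12 cKO marrow with those from recipients of wild type marrow. No source used here gives the age of the mice, the Cre line, the surface proteins used for the sort or whether cells of the Ly5.1 competitor were gated out, and CD11c, the product of Itgax, is a usual sort marker for these cells.

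As background, an integrin chain reaches the cell surface only as part of an alpha-beta pair, so the amount of one chain can limit the others. The beta2 chain (Itgb2, CD18) pairs with the alpha chains of Itgal (CD11a), Itgam (CD11b), Itgax (CD11c) and Itgad (CD11d), which bind cell-surface ICAM proteins, complement-coated particles or fibrinogen. The alpha v chain (Itgav) pairs with beta3 and beta5 and binds vitronectin, osteopontin and the bridging protein MFG-E8 on dying cells. Mouse alveolar macrophages are known for high CD11c and low CD11b, unlike most other tissue macrophages and monocytes.

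Libraries held 63923829 to 70473901 counts in Suz12 cKO and 48104653 to 79281431 in wild type. Suz12 itself was low throughout the Suz12 cKO libraries without overlap, with means of 20.3 ± 4.53 against 63.9 ± 8.93 CPM (counts per 1000000 after TMM scaling; SD, n = 3 and n = 4; log2 fold change -1.65, edgeR quasi-likelihood adjusted p = 0.00134). The alveolar macrophage markers Chil3, Siglecf and Pparg were present in every library, at 17800 to 20400, 198 to 235 and 202 to 219 CPM in Suz12 cKO, against 15800 to 18500, 238 to 318 and 170 to 254 CPM in wild type. Of the 18 alveolar macrophage markers, 6 were called higher in Suz12 cKO (Fabp4, Marco, Mrc1, Ear1, Ear2 and Krt79) and 3 lower (Plet1, Cd2 and Epcam). Among all tested genes, 6.28% were called higher and 4.02% lower. Epcam had 34.8 to 60.4 CPM in Suz12 cKO, against 150 to 190 CPM in wild type (log2 fold change -1.89, edgeR adjusted p = 0.00135). Replicates 1 and 2 of Suz12 cKO held haemoglobin transcripts at 146 and 108 CPM and replicate 3 at 1.94 CPM, while wild type replicate 2 held 39.7 CPM and the remaining wild type libraries 2.10 to 3.72 CPM. The 3 libraries above 20 CPM are called high in tissue RNA.

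The promoter windows of the 5 members that differed between genotypes are shown because PRC2 acts mainly at promoters rich in CpG. Each runs from 250 bases before to 50 bases after a RefSeq transcription start in GRCm38.p6, 5' to 3' on the strand of the gene, with CpG dinucleotides in capitals.
Itgax, chr7:128129300-128129599, plus strand: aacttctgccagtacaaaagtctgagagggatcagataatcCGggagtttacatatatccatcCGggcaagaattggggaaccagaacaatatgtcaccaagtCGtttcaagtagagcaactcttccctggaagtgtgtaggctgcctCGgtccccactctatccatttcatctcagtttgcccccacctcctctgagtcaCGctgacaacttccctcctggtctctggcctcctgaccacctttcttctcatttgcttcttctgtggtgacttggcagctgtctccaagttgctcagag
Itgam, chr7:128062390-128062689, plus strand: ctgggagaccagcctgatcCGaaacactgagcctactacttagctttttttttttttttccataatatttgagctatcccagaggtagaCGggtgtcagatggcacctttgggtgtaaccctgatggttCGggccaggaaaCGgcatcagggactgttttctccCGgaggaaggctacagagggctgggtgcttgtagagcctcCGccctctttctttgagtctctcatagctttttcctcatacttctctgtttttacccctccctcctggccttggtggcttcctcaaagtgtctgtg
Itgav, chr2:83724147-83724446, plus strand: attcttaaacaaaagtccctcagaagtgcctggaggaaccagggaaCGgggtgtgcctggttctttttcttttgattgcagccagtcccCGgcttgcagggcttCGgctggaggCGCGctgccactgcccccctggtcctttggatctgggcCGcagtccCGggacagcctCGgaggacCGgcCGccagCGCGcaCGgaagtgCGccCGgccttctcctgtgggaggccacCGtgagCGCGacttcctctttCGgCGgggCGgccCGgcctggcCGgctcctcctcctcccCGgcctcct
Itgb5, chr16:33829415-33829714, plus strand: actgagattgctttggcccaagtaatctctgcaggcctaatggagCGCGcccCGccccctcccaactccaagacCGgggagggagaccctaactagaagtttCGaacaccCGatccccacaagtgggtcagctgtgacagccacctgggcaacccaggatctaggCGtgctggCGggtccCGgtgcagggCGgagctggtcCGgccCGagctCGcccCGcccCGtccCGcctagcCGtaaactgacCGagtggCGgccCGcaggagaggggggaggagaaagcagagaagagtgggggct
Itga5, chr15:103366742-103367041, minus strand: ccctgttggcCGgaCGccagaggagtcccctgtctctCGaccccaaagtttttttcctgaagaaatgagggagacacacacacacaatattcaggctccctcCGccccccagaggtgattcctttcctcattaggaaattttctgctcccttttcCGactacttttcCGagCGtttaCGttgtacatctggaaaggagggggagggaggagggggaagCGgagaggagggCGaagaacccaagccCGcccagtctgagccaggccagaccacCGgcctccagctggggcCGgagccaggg

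These windows held 5 CpG in Itgax and 6 in Itgam, against 24 in Itgav, 20 in Itgb5 and 13 in Itga5, and 10 in Itga4 and 27 in Itgb1, which were not called. The median over all 32851 windows of the table was 7, with quartiles of 3 and 20; 7 of the 10 members had a window. The letters GAGGAA, the core of sites of the macrophage factor PU.1, occurred on either strand in 3 places in Itgam, 2 in Itgav, 1 in Itga5 and 0 in Itgax and Itgb5, and in 28.3% of all windows at least once. The GC box GGGCGG, searched on both strands, was found in 3 places in Itgb5, 2 in Itga5, 1 each in Itgam and Itgav and 0 in Itgax, and in 35.7% of windows. The AP-1 motif TGANTCA, a palindrome, had 1 match in Itgax and 0 in the other 4, against 7.81% of all windows with a match. These are counts of letters, with no measure of binding.

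Of the 10 genes, 4 were called higher in Suz12 cKO (Itgax, Itgam, Itgav and Itgb5) and 1 lower (Itga5), at an adjusted p under 0.05 by edgeR over all tested genes. Among all 14436 tested genes, 6.28% were called higher and 4.02% lower, 10.3% in all. The median log2 fold change was 0.11 over the 10 genes and 0.004 over all tested genes. The CPM ranges of the genotypes did not overlap in 6 of the 10, with Suz12 cKO above in 5 (Itgb3 in addition to the called genes) and below in 1, against 14.1% and 11.5% of all tested genes, 25.5% in either direction. In bulk RNA, a change in the share of cells that express a gene and a change in RNA per cell cannot be told apart.

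**Figure D1:**
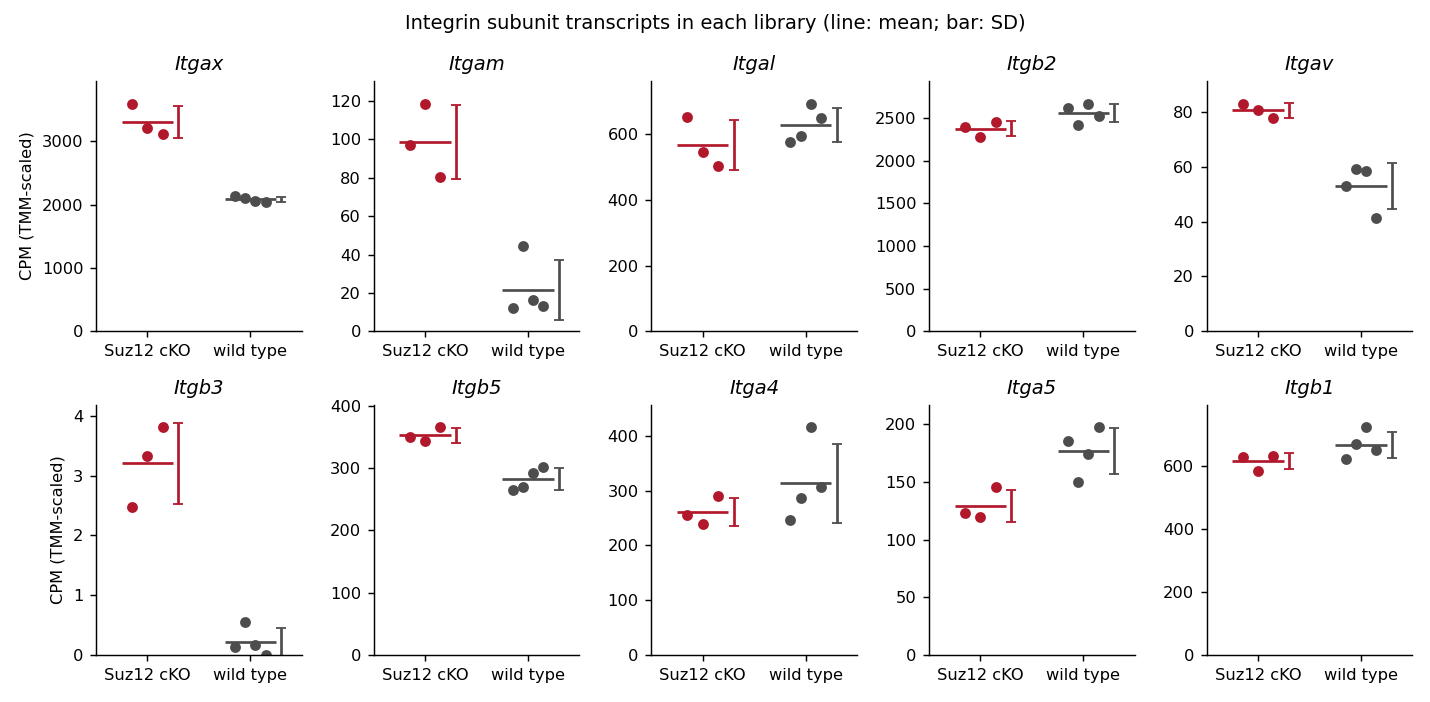
CPM of each of the 10 integrin genes (y axis, from 0) in the 3 Suz12 cKO (left, red) and 4 wild type (right, grey) libraries; points are libraries, lines means, bars SD. Itgax, Itgam, Itgav, Itgb3 and Itgb5 show all Suz12 cKO points above all wild type points, and Itga5 the reverse.

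Among the leukocyte integrins, Itgax and Itgam rose while Itgal and the shared chain Itgb2 did not pass the test. Itgax (Entrez 16411, chromosome 7, 128129526 to 128150657 in GRCm38) stood at 3593, 3215 and 3115 CPM in Suz12 cKO libraries, against 2138, 2097, 2052 and 2045 CPM in wild type libraries. The wild type libraries lay within a few percent of each other (coefficient of variation 2.07%), and all 3 Suz12 cKO libraries lay far above them. The fold change was 1.59 (log2 0.67, SE 0.07, edgeR adjusted p = 9.8e-04).

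Itgam (Entrez 16409, chromosome 7, 128062640 to 128118491) was far less abundant, at 97.4, 118.6 and 80.3 CPM in Suz12 cKO libraries, against 11.9, 44.6, 16.3 and 13.1 CPM in wild type libraries. Wild type replicate 2 stood above the other wild type libraries, and below each Suz12 cKO library. Itgam was 4.60-fold higher in Suz12 cKO (log2 2.20, SE 0.44, edgeR adjusted p = 0.0151). In GENCODE M21 its exons share 3450 bases with Gm49368 on the same strand. No source used here says whether the annotation used for counting holds Gm49368, so any effect on the Itgam counts is not known. Without wild type replicate 2 the log2 fold change was 2.83; within the 3 libraries high in tissue RNA it was 1.28 and within the 4 low ones 2.53 (edgeR adjusted p = 0.0048 and 0.0010, each with 1 lone library of a genotype assumed to vary like the others). The adjusted p was 0.0604 without Suz12 cKO replicate 2 and 0.0526 without wild type replicate 3.

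Cells that could bring in CD11b were measured beside it. The 15 monocyte and interstitial macrophage markers summed to 1680, 1810 and 1570 CPM in Suz12 cKO libraries, against 823, 2080, 926 and 857 CPM in wild type libraries. Of these, the endotoxin co-receptor gene Cd14 had 810, 853 and 260 CPM in Suz12 cKO libraries, against 152, 1030, 132 and 131 CPM in wild type libraries. Csf1r, the receptor gene for the macrophage growth factor, had 411, 384 and 424 CPM in Suz12 cKO libraries, against 365, 388, 464 and 433 CPM in wild type libraries. Ly6c2, which defines inflammatory monocytes, was at 0.142, 1.13 and 0 CPM in Suz12 cKO, against 0, 1.08, 0.272 and 0 CPM in wild type. The 11 neutrophil markers summed to 119, 178 and 122 CPM in Suz12 cKO, against 56.4 to 67.0 CPM in wild type. Of these, 6 were tested and 4 rose (S100a8, Cxcr2, Csf3r and Retnlg), against 6.28% of all tested genes. Ly6g and Camp had no count in any library. The part of these cells in the Itgam result was not tested. Fits within the high and low libraries cannot test it, because that split used haemoglobin and not these markers. Among the low libraries the monocyte and interstitial macrophage markers summed to 1570 CPM in Suz12 cKO and 823 to 926 CPM in wild type.

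Itgal, the chain of LFA-1 that binds ICAM-1, stood at 652.7, 546.6 and 504.1 CPM in Suz12 cKO, against 575.4, 596.2, 693.1 and 649.1 CPM in wild type. The groups overlapped, with a log2 fold change of -0.15 (SE 0.11, edgeR adjusted p = 0.482). Itgb2 stood at 2393, 2281 and 2451 CPM in Suz12 cKO, against 2615, 2421, 2666 and 2520 CPM in wild type. Itgb2 was not called (log2 fold change -0.11, SE 0.06, edgeR adjusted p = 0.355), and Suz12 cKO replicate 3 lay above wild type replicate 2.

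The fourth alpha partner of beta2, Itgad (chromosome 7, 128173933 to 128205504), rose more than Itgax. Suz12 cKO libraries had 992.7, 940.8 and 657.4 CPM of Itgad, against 211, 204, 130 and 123 CPM in wild type libraries. Its fold change was 5.17 (log2 2.37, SE 0.23, edgeR adjusted p = 8.5e-04), and no library overlapped between the genotypes. Itgax and Itgad are close paralogs: 199 of 4790 windows of 85 bases (the read length) in annotated Itgax transcripts also occur in Itgad transcripts, while 0 are shared with Itgam or Itgal. No source used here says how the authors' counting treated such reads.

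The balance between these chains was compared within each library, on CPM per kb of the deposited exon length. The Itgax to Itgam ratio was 42.9, 31.5 and 45.1 in Suz12 cKO, against 209, 54.7, 146 and 182 in wild type. Every Suz12 cKO library was lower than every wild type library, though wild type replicate 2 lay close to them (exact two-sided permutation test p = 0.0571, the smallest that 3 against 4 libraries can give). Itgb2 over the sum of Itgal, Itgam and Itgax was 0.805, 0.858 and 0.965 in Suz12 cKO, against 1.42, 1.31, 1.44 and 1.39 in wild type (exact permutation p = 0.0571, again the smallest possible). In wild type libraries there was thus more Itgb2 transcript per kb than of the 3 alpha chains together, and in Suz12 cKO libraries less.

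**Figure D2:**
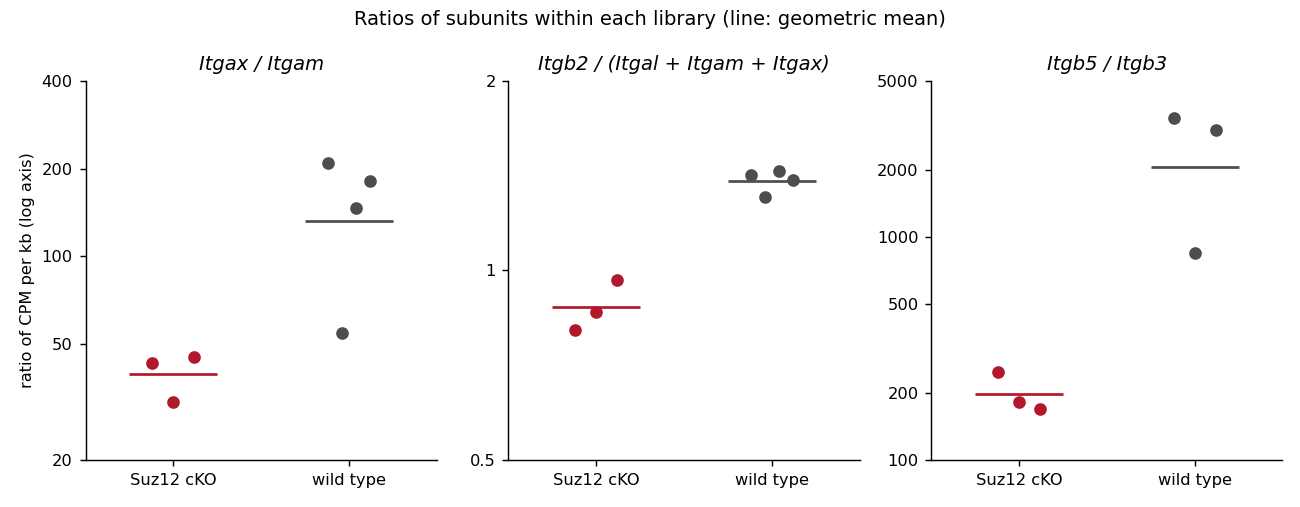
Ratios of CPM per kb between subunits within each library (log axes), Suz12 cKO left and wild type right; points are libraries and lines geometric means. For all 3 ratios the Suz12 cKO points lie below all wild type points shown; Itgb5 over Itgb3 is not defined in wild type replicate 4, which had no Itgb3 count.

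Of the summed level of the 4 alpha partners of beta2 per kb, Itgax made up 70.4 ± 2.67% in Suz12 cKO and 75.6 ± 0.729% in wild type (SD, n = 3 and n = 4). Itgad made up 18.5 ± 2.44% in Suz12 cKO and 6.13 ± 1.59% in wild type, and Itgal 9.27 ± 0.373% in Suz12 cKO and 17.6 ± 1.79% in wild type. Itgam was the smallest in both, at 1.80 ± 0.319% in Suz12 cKO and 0.666 ± 0.473% in wild type, with wild type replicate 2 at 1.37%.

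**Figure D3:**
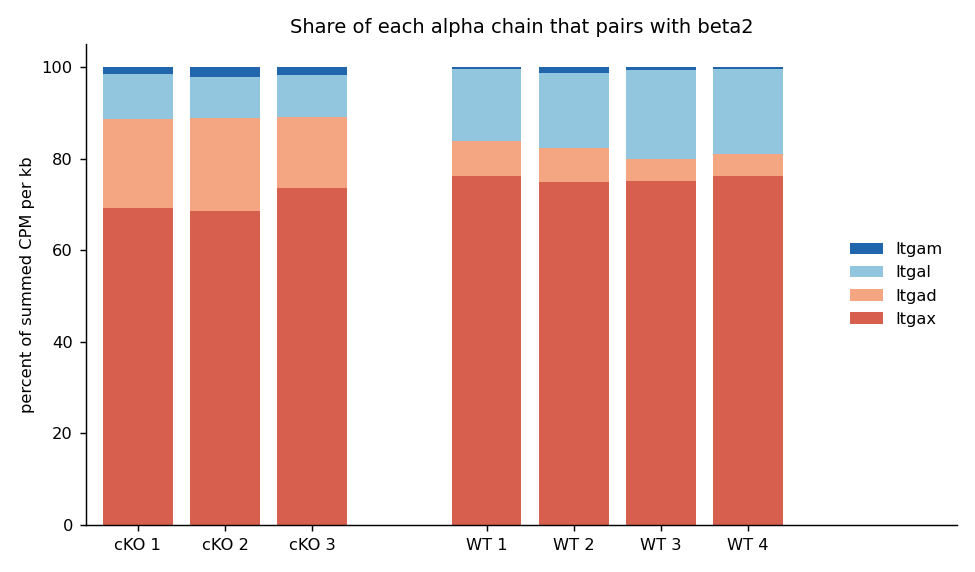
Share of each alpha chain in the summed CPM per kb of Itgax, Itgad, Itgal and Itgam (y axis, percent), one bar per library, Suz12 cKO left and wild type right. Itgad takes 15.7 to 20.4% in Suz12 cKO bars and 4.67 to 7.63% in wild type bars.

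Itgam, Itgax and Itgad lie side by side on the plus strand of chromosome 7, with 11034 bases between Itgam and Itgax and 23275 bases between Itgax and Itgad, and all 3 rose. Itgal, which did not pass the test, lies on the same chromosome 727502 bases before Itgam. Within 250 kb on either side of the 3 genes, a window chosen after their values were seen, 19 other genes were tested. Of these 1 was called, against 10.3% of all tested genes. It was Cox6a2, a respiratory chain subunit gene that overlaps the end of Itgad by 70 bases, at 8.44 CPM in Suz12 cKO and 1.96 CPM in wild type (log2 fold change 2.10, edgeR adjusted p = 0.0375). Among the genes not called, Tgfb1i1 averaged 2.66 CPM in Suz12 cKO and 0.597 CPM in wild type (log2 fold change 2.15, edgeR adjusted p = 0.123). Another, 4931431B13Rik, whose span lies within that of Itgad, averaged 0.650 CPM in Suz12 cKO and 0.0944 CPM in wild type (log2 fold change 2.76, edgeR adjusted p = 0.424). Pycard, an inflammasome adaptor gene, had a log2 fold change of -0.05 (edgeR adjusted p = 0.911).

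**Figure D4:**
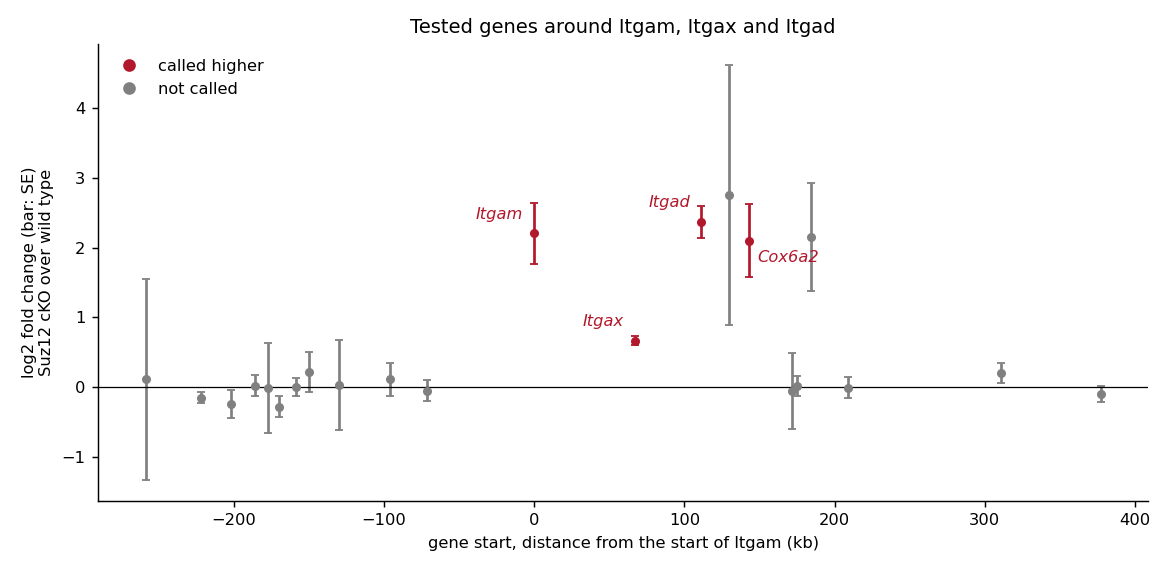
Log2 fold change, Suz12 cKO over wild type, of each tested gene (y axis; bars SE) by the distance of its start from that of Itgam in kb (x axis). Itgam, Itgax, Itgad and Cox6a2, in red, were called higher, and the genes in grey were not called.

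Of the alpha v integrins, the shared chain Itgav and the beta chain Itgb5 rose, and Itgb3 was higher in each Suz12 cKO library but did not pass the test. Itgav (Entrez 16410, chromosome 2, 83722303 to 83806917) stood at 83.0, 80.8 and 77.9 CPM in Suz12 cKO, against 52.9, 59.4, 58.4 and 41.4 CPM in wild type. It was 1.52-fold higher (log2 0.60, SE 0.13, edgeR adjusted p = 0.0195), with a narrow spread among Suz12 cKO libraries (coefficient of variation 3.19%). Its adjusted p was 0.0809, 0.0726 and 0.0516 without Suz12 cKO replicates 1, 2 and 3 and 0.0530 without wild type replicate 1, at log2 fold changes of 0.57 to 0.61, and 0.117 within the libraries low or high in tissue RNA.

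Itgb5 (Entrez 16419, chromosome 16, 33829665 to 33949338), whose product takes up MFG-E8-coated dying cells with alpha v, stood at 349.4, 343.1 and 365.5 CPM in Suz12 cKO, against 265.8, 269.5, 291.6 and 301.9 CPM in wild type. The difference was small and the groups did not overlap (1.25-fold, log2 0.32, SE 0.08, edgeR adjusted p = 0.0428). The adjusted p lay between 0.0617 and 0.137 with any of the 7 libraries left out, at log2 fold changes of 0.28 to 0.345.

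Itgb3 (Entrez 16416, chromosome 11, 104608000 to 104670476) was rare, with 157, 219 and 272 counts in Suz12 cKO libraries, against 11, 34, 10 and 0 counts in wild type libraries. These are 2.48, 3.335 and 3.81 CPM in Suz12 cKO, against 0.137, 0.558, 0.170 and 0 CPM in wild type; the count of 0 allows up to 0.0624 CPM of the unscaled total, for counting error only. The log2 fold change of 3.87 (SE 1.08) had an edgeR adjusted p of 0.0557. The adjusted p was 0.0119 without wild type replicate 2, 0.0324 without wild type replicate 4, 0.0373 with a term for tissue RNA and 4.5e-04 with DESeq2.

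Because beta3 with the alpha chain of Itga2b is the platelet fibrinogen receptor, platelet genes were set beside Itgb3. Itga2b stood at 2.16, 1.19 and 1.06 CPM in Suz12 cKO, against 0.660, 0.492, 0.204 and 0 CPM in wild type (edgeR adjusted p = 0.339). The platelet chemokine gene Ppbp was at 2.34, 0.807 and 0 CPM in Suz12 cKO, against 0, 0.312, 0 and 0 CPM in wild type, and Gp9 at 0.473, 0.442 and 0 CPM in Suz12 cKO, against 0, 0.0656, 0 and 0 CPM in wild type. Suz12 cKO replicate 3, with the highest Itgb3, thus had no count of Ppbp or Gp9. The platelet chemokine gene Pf4 was at 11.6, 11.2 and 9.28 CPM in Suz12 cKO, against 3.7, 8.17, 1.5 and 1.9 CPM in wild type. The 10 platelet and megakaryocyte markers summed to 20.5 to 31.0 CPM in Suz12 cKO, against 24.0 to 41.5 CPM in wild type, where most of it was Clec1b, which fell (log2 fold change -1.63, edgeR adjusted p = 0.0017). The part of platelets in the Itgb3 values was not tested further. The ratio of Itgb5 to Itgb3 per kb was 248, 181 and 169 in Suz12 cKO, against 3420, 851 and 3020 in wild type replicates 1 to 3 (exact two-sided permutation p = 0.100, the smallest that 3 against 3 can give).

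Of the fibronectin receptors, only Itga5 passed the test, and it fell. Itga5 (Entrez 16402, chromosome 15, 103344286 to 103366791), which with beta1 binds the RGD site of fibronectin, stood at 123.4, 119.8 and 145.5 CPM in Suz12 cKO, against 185.7, 150.0, 174.7 and 197.4 CPM in wild type. The gap between Suz12 cKO replicate 3 and wild type replicate 2 was narrow. Itga5 had a log2 fold change of -0.45 (SE 0.12, edgeR adjusted p = 0.0472). The adjusted p was 0.148 and 0.165 without Suz12 cKO replicates 1 and 2, 0.114, 0.0972 and 0.0959 without wild type replicates 1, 3 and 4, and 0.0556 and 0.0649 with other library scalings.

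Itga4, which pairs with beta1 or beta7 and binds VCAM-1, stood at 254.7, 238.9 and 289.4 CPM in Suz12 cKO, against 245.9, 287.0, 415.4 and 306.7 CPM in wild type. The groups overlapped and wild type replicate 3 stood highest (log2 fold change -0.27, SE 0.17, edgeR adjusted p = 0.394). Itgb1 stood at 630.3, 585.5 and 631.4 CPM in Suz12 cKO, against 624.1, 669.8, 723.1 and 650.7 CPM in wild type (log2 fold change -0.12, SE 0.08, edgeR adjusted p = 0.441). In GENCODE M21, exons of Itga4 share 1124 bases with Cerkl on the other strand, and those of Itgav share 634 bases with Gm13684 on the other strand. With the annotation and strand setting of the counting not given in the sources used here, how reads of these overlaps were counted is not known.

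Of the 17 integrin subunit genes outside the 10, 12 passed the filter, and 3 rose and 0 fell by edgeR. DESeq2 also called 0 lower, and 0 had an unadjusted edgeR p under 0.05 in that direction. Over all tested genes 6.28% were called higher and 4.02% lower, so 0 lower among 12 genes says little. The median log2 fold change of 0.97 lay between Itgb8 (0.93, edgeR adjusted p = 0.711) and Itga10 (1.01, edgeR adjusted p = 0.667). Both were rare, with averages of at most 1.036 CPM in either genotype. The genes that rose were Itgad, Itga6 and Itga1. Without wild type replicate 2, 5 rose, with Itga3 (log2 fold change 2.96, edgeR adjusted p = 0.0427) and Itgb7 in addition. Itga6, a laminin receptor chain that pairs with beta1, stood at 82.5, 73.5 and 75.6 CPM in Suz12 cKO, against 30.2, 31.7, 27.2 and 22.3 CPM in wild type (2.77-fold, log2 1.47, SE 0.13, edgeR adjusted p = 5.4e-04). Itga1, a collagen receptor chain that also pairs with beta1, averaged 37.7 ± 2.33 CPM in Suz12 cKO and 28.6 ± 2.11 CPM in wild type (edgeR adjusted p = 0.0450). Its adjusted p was between 0.0639 and 0.157 without any 1 library other than wild type replicate 2. Genes for chains that pair with beta1 thus went different ways, Itga6 and Itga1 higher and Itga5 lower. Lung structural cells also use these receptors, so their markers were set beside them. The 10 alveolar epithelium markers summed to 141, 163 and 133 CPM in Suz12 cKO libraries, against 65.4, 154, 70.5 and 71.8 CPM in wild type libraries. Most of this sum in Suz12 cKO was the E-cadherin gene Cdh1, at 102, 87.4 and 112 CPM in Suz12 cKO, against 49.7, 64.4, 45.1 and 44.6 CPM in wild type. The surfactant gene Sftpc, which defines type II epithelium, had 4.53, 9.08 and 0 CPM in Suz12 cKO, against 0, 10.6, 0 and 0.0412 CPM in wild type. The 10 fibroblast markers summed to 136, 141 and 104 CPM in Suz12 cKO, against 60.3, 104, 47.4 and 46.3 CPM in wild type. Nearly all of this sum in Suz12 cKO was Cspg4 and Pdgfra. Pdgfra was called higher, at 29.6, 37.0 and 33.6 CPM in Suz12 cKO, against 2.39, 1.3, 0.272 and 0 CPM in wild type. Of the 6 tested fibroblast markers, 1 was called higher and 0 lower, against 6.28% and 4.02% of all tested genes. The fibroblast matrix genes Col1a1 and Dcn were at 0 in Suz12 cKO replicate 3 and in wild type replicates 1, 3 and 4. The 8 endothelial markers summed to 77.6, 82.2 and 112 CPM in Suz12 cKO, against 106, 99.4, 98.2 and 102 CPM in wild type, and most of that was Vwf. The part of these cells in the Itga6 and Itga1 results was not tested.

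Itgb7, which pairs with the chains of Itga4 and Itgae, stood at 19.4, 21.1 and 20.3 CPM in Suz12 cKO, against 5.63, 19.5, 7.73 and 11.5 CPM in wild type. It was not called (log2 fold change 0.87, edgeR adjusted p = 0.183), and had a log2 fold change of 1.28 and an adjusted p of 0.0116 without wild type replicate 2. Itgae, the CD103 chain of lymphocytes and dendritic cells, averaged 6.29 ± 2.73 CPM in Suz12 cKO and 11.9 ± 5.67 CPM in wild type (edgeR adjusted p = 0.317). Itga2b, Itga3, Itga8, Itga9, Itga10, Itgb4 and Itgb8 averaged at most 1.785 CPM in either genotype and were not called. Itga2, Itga7, Itga11, Itgb2l and Itgb6 were below the filter.

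**Figure D5:**
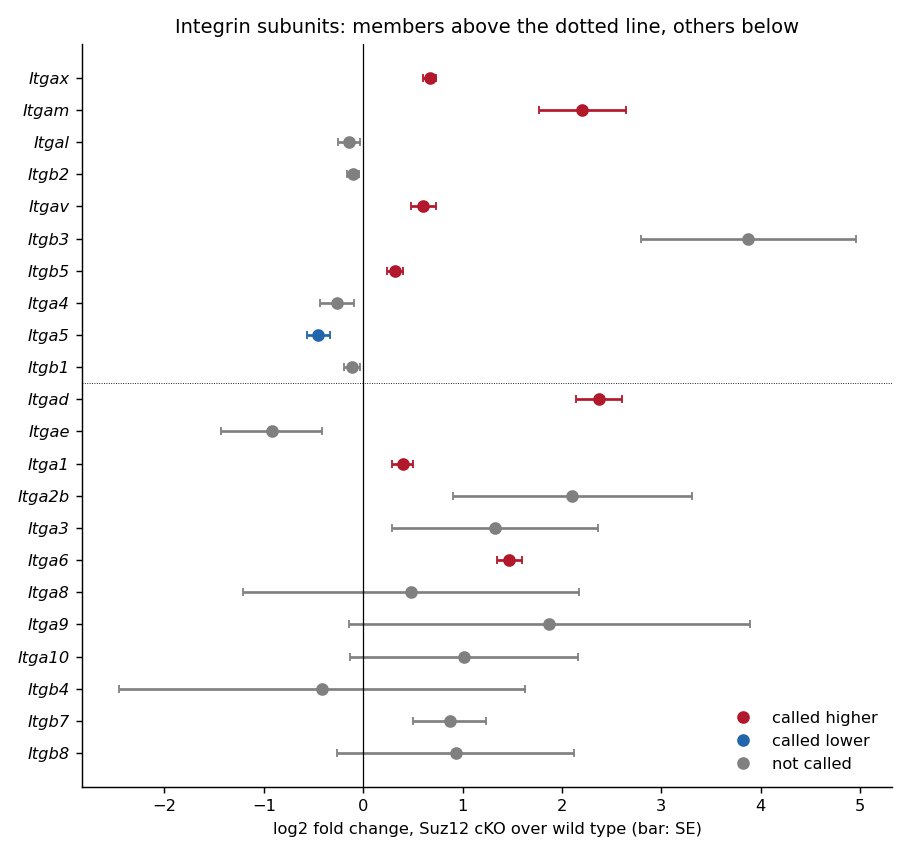
Log2 fold change, Suz12 cKO over wild type (x axis; bars SE), of the 10 integrin genes followed here (above the dotted line) and of the 12 other tested subunit genes (below it). Genes called higher (red) lie between 0.32 and 2.37, Itga5 (blue) at -0.45, and genes not called (grey) have wide bars where counts are low.

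Levels per kb put Itgb2 and Itgax first in both genotypes. In Suz12 cKO they averaged 830 ± 30.2 and 822 ± 62.7 CPM per kb and their ranges overlapped, whereas in wild type they averaged 893 ± 37.8 and 517 ± 10.7 CPM per kb and stood apart. Itgb1 followed at 147 ± 6.24 CPM per kb in Suz12 cKO and 159 ± 9.99 CPM per kb in wild type. Itgal and Itgb5 overlapped in Suz12 cKO (109 ± 14.6 and 107 ± 3.52 CPM per kb) and stood apart in wild type (120 ± 10.2 and 86.0 ± 5.29 CPM per kb). Itga5 and Itga4 overlapped in both genotypes, at 29.7 ± 3.18 and 26.5 ± 2.63 CPM per kb in Suz12 cKO and 40.5 ± 4.63 and 31.9 ± 7.36 CPM per kb in wild type. Itgam overlapped with Itga4 and ranked above Itgav in Suz12 cKO (21.1 ± 4.10 and 11.4 ± 0.365 CPM per kb) and overlapped with it in wild type (4.59 ± 3.32 and 7.52 ± 1.17 CPM per kb). Itgb3 was last in both, at 0.555 ± 0.116 CPM per kb in Suz12 cKO and 0.0374 ± 0.0414 CPM per kb in wild type.

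Transcripts for proteins that act with integrins inside the cell went both ways. Of 41 listed adaptor and signalling genes, 39 were tested, 5 rose and 4 fell, and the median log2 fold change was -0.005. The shares over all tested genes were 6.28% higher and 4.02% lower. The 4 smallest p-values belonged to genes that rose. Src, the kinase downstream of engaged integrins, averaged 51.3 ± 13.4 CPM in Suz12 cKO and 7.47 ± 3.61 CPM in wild type (log2 fold change 2.78, SE 0.36, edgeR adjusted p = 0.0026). Ptk2, the gene of focal adhesion kinase, averaged 11.8 ± 1.08 CPM in Suz12 cKO and 3.67 ± 0.912 CPM in wild type (edgeR adjusted p = 0.0045). The talin gene Tln2 and the tensin gene Tns1, which link beta tails to actin, rose by 2.96 and 0.61 on the log2 scale (edgeR adjusted p = 0.0075 and 0.0078). Tln2 lost its call within the libraries high in tissue RNA (log2 fold change 1.99, edgeR adjusted p = 0.0753), and Tns1 within the low ones (0.33, edgeR adjusted p = 0.131). Fyb also rose, and Actn1, Itgb1bp1 and Vasp were among those that fell. With wild type replicate 2 left out 9 genes rose, 1 fell without Suz12 cKO replicate 1 or 2, and 2 fell without wild type replicate 1 or 3.

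Of 43 listed genes for integrin ligands, 29 were tested, 9 rose and 1 fell, against 6.28% higher and 4.02% lower among all tested genes. The median log2 fold change was 1.07 over the ligands and 0.004 over all tested genes, and the list was chosen with earlier results of these data known. The ligand median was the value of Postn, which was not called (SE 2.255, edgeR adjusted p = 0.841). Postn averaged 0.503 CPM in Suz12 cKO and 0.238 CPM in wild type, so this median rests on a rare transcript. Mfge8, the bridging ligand of the alpha v integrins, stood at 168.9, 179.2 and 313.3 CPM in Suz12 cKO, against 49.8, 45.5, 25.3 and 26.9 CPM in wild type (log2 fold change 2.58, SE 0.30, edgeR adjusted p = 0.00185). Fn1, the fibronectin bound by the products of Itga5 and Itga4, and Spp1, the osteopontin bound by alpha v integrins, had log2 fold changes of 1.36 and 1.30 (edgeR adjusted p = 0.0026 and 0.0034). Emilin1, a matrix ligand of beta1 integrins, averaged 41.0 ± 2.44 CPM in Suz12 cKO and 76.1 ± 8.90 CPM in wild type (edgeR adjusted p = 0.0023). The other genes that rose were Vcam1, Lamc1, Col4a1, Col4a2, Col6a3 and Cdh1. Cdh1 is also among the epithelium markers given with Itga6, and the part of fibroblasts and epithelium in the ligand values was not tested.

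Of 16 membrane proteins that associate with integrins, 2 rose and 1 fell, with a median log2 fold change of 0.07. With 6.28% of all tested genes called higher and 4.02% lower, counts this small say little about the list. The tetraspanin gene Cd81 stood at 279.0, 312.5 and 268.4 CPM in Suz12 cKO, against 144.6, 154.4, 141.2 and 150.3 CPM in wild type (edgeR adjusted p = 6.5e-04). Another tetraspanin gene, Cd9, averaged 3171 ± 41.0 CPM in Suz12 cKO and 4365 ± 447 CPM in wild type (log2 fold change -0.46, edgeR adjusted p = 0.0101), a call lost within the libraries low in tissue RNA (edgeR adjusted p = 0.111). Cd36, a scavenger receptor gene, rose (log2 fold change 1.29, edgeR adjusted p = 0.0222), a call that was lost without Suz12 cKO replicate 1, 2 or 3 or wild type replicate 3. The tetraspanin gene Cd53 had a log2 fold change of -0.36 (edgeR adjusted p = 0.0606; 0.028 without wild type replicate 4).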

How the data were processed

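Poly(A) RNA of 7 libraries of sorted alveolar macrophages was sequenced on a NextSeq 500 after TruSeq preparation, with single-end 85 bp reads per the labels. The deposited values are whole-number gene counts that the authors obtained using featureCounts and mm10, per the submitters' processing notes; aligner, annotation and strand setting: not given in the sources used here. Library totals of 48104653 to 79281431 counts exceed the read yield stated in the series design, which no source used here explains; floors cover counting error only. The deposited gene length in bases, which featureCounts reports as summed exon length, was used for CPM per kb. The 7 deposited files of single samples held the same counts. Symbols and positions came from RefSeq GRCm38.p6 by Entrez number (25275 of 27179 genes matched), promoter windows from RefSeq GRCm38.p6, and exon overlaps and transcripts from GENCODE M21.

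Groups followed the sample titles. Genes were filtered with filterByExpr (minimum count 10, minimum total 15), scaled with TMM and tested by quasi-likelihood in edgeR 4.0.16 under R 4.3.3. Genotype was the single model term, with Benjamini-Hochberg adjustment over 14436 genes. CPM values use TMM-scaled library sizes, the haemoglobin sum does not. The SE is the log2 fold change over the square root of F. Ratios were compared by exact two-sided permutation tests (scipy 1.17.1). Libraries with over 20 CPM of haemoglobin transcripts were called high in tissue RNA. Alternatives were other scalings and filters, DESeq2 1.42.0, each library left out, the replicate number as a block, and fits with or within tissue RNA classes. The fit was tested on simulated data. Genes named were Suz12, the 10 members, the other tested subunits, the 4 smallest p-values of each list of adaptors, ligands and partners, and the cell type markers that bear on them; other called list members are named without values, and neighbouring genes on chromosome 7 were chosen after their values were seen. The members and lists were chosen with earlier results of these data known. Postn was named as the gene at the ligand median. Hbb-bt matched no gene of the table. Some list and neighbouring genes are not reported here by name.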

Additional observations from a re-analysis of the deposited data

Results flagged for a closer look

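In 3 genes, wild type replicate 2 stood far above the other 3 wild type libraries, with a gap, as a share of the range of the 4, above Dixon's critical value. Itgam was at 44.6 CPM there, against 11.9 to 16.3 CPM in the others. Itga3 was at 2.17 CPM there, against 0.124 to 0.311 CPM in the others, and Itga9 at 1.03 CPM, against 0 to 0.100 CPM. Chance flags about 1 in 20 groups of this size, and 35 genes were examined. Wild type replicate 2 is also the wild type library with the most haemoglobin, Cd14 and monocyte marker transcripts; the part of these cells in the 3 values was not tested.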

How the results depend on the processing

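Over 16 alternatives, Itgax kept its call in each (log2 fold change 0.57 to 0.70), as did Itgad (2.08 to 2.52) and Itga6 (1.30 to 1.52). Itgam kept it in 14, Itgav in 10, Itga5 in 6 and Itgb5 in 5, with no change of sign, and the uncalled Itgb3 passed in 5. The number of the 10 genes called higher was 1 to 4 and the number called lower 0 to 1 with a library left out. Within the libraries low in tissue RNA, and likewise within the high ones, 2 were called higher (Itgam and Itgax) and 0 lower; fewer libraries were tested there. The number called lower was 0 with RLE or no scaling factors, and 0 with the replicate block. Same-numbered libraries of the 2 genotypes had deviations correlated at -0.04, 0.24 and 0.16 across genes. Pairs of libraries with different numbers had correlations of -0.256 to 0.117. Whether same-numbered libraries share more than a number was not tested. With the replicate block 3 of the 10 were called higher. Over all genes the block gave 585 higher and 278 lower, against 906 and 580 without it. Over all genes with a library left out, 447 to 1515 were called higher and 268 to 885 lower, and DESeq2 called 1393 higher and 848 lower.

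The log2 difference of the Itgax to Itgam ratio, Suz12 cKO minus wild type, was -1.75; it was -1.85 to -1.53 with a library left out except wild type replicate 2, without which it was -2.17, and -0.57 within the libraries high in tissue RNA. That of Itgb2 over its alpha chains was -0.67 (-0.74 to -0.61 with a library left out), -0.55 within the libraries low in tissue RNA, and -0.87 with Itgad added to the sum, an alternative chosen after seeing the data. That of Itgb5 to Itgb3 was -3.39 (-4.03 to -3.03 with a library left out), -4.25 within the low and -2.003 within the high libraries. The cause was not tested. Signs turned only for uncalled genes: within the high libraries Itgal (0.009), Itga3 (-0.79), Itga8 (-0.41), Itga9 (-0.31), Itgb4 (1.79) and Itgb8 (-1.36); Itga8 also with the replicate block (-0.83) and without Suz12 cKO replicate 2 (-0.36; -0.36 to 1.052 with a library left out), Itgb4 without Suz12 cKO replicates 1 and 3 (0.162 and 0.164; -6.331 to 0.164 with a library left out), and Itgb8 without Suz12 cKO replicate 3 (-0.93). The count of 0 for Itgb3 in wild type replicate 4 sets no lower level than 0.0624 CPM at its depth.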
